A study of Mus musculus with 8 samples.

Results

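The 10 genes described here are the 7 sirtuin genes, Sirt1 to Sirt7, and 3 genes of nicotinamide and NAD metabolism, Nampt, Nmnat1 and Nnmt. They were chosen by gene symbol in the annotation of the array, which assigned 16 features to them, among 33653 features with a single symbol and 19087 genes. All 10 genes were measured on every array. Liver RNA of 9-month-old mice, strain C57Bl/6, was hybridised on 8 two-colour arrays. On 4 arrays the liver RNA of an untreated Wrn mutant mouse, which makes a mutant form of the RecQ helicase Wrn, was set against wild type liver RNA, and on 4 arrays that of a vitamin C treated Wrn mutant mouse was. The mutant RNA carried Cy5 on numbers 1 and 2 and Cy3 on numbers 3 and 4 of each group. By the labels, wild type 1 is on both arrays numbered 1, and likewise for the other numbers. All animals had free food and water and a reversed light cycle. The sources used here name neither the Wrn allele nor the sex of the mice, nor the dose and length of the treatment. The design text calls the 4 replicates biologically independent.

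NAD carries electrons in metabolism and is also consumed as a substrate. Sirtuins use it to remove acetyl and other acyl groups from proteins, and release nicotinamide. In the salvage route, Nampt joins nicotinamide to a ribose phosphate to make nicotinamide mononucleotide, and the Nmnat enzymes turn that into NAD. Nnmt takes nicotinamide out of the route by methylating it with S-adenosylmethionine. The liver makes much of the NAD precursor supply of the body and, besides salvage, can build NAD from tryptophan.

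The deposited values are log ratios with a median between -0.0053 and 0.0049 on each array, read here as log2 of mutant over wild type. The file holds no intensity, so neither the level of a gene nor its signal over background is known, and liver markers could be compared only as ratios. No source used here states whether swapped arrays had been turned to one direction. They were taken as turned, a choice on which the evidence is divided. The titles of arrays 1 and 2 of each group name the mutant before wild type, but those of the swapped arrays 3 and 4 name wild type before the mutant, which read as a ratio would leave those arrays unturned. Among the 200 measured genes nearest to Wrn, an unadjusted p under 0.01 for both mutant groups over wild type was found for 20 as deposited and for 11 with values turned by the dyes (swapped arrays multiplied by -1), while over all genes there were 560 and 1087. Genes passing the adjusted threshold for both mutant groups over wild type numbered 2 as deposited and 309 turned by the dyes. The title of the series compares mutants to wild type, and wild type is the first channel throughout. Neither the turning nor the direction is settled by this. The opposite direction would change every sign given here, and values turned by the dyes are given beside many results. Wrn itself stood at 0.19 ± 0.10 in untreated and 0.16 ± 0.10 in treated mutants (SE, n = 4 arrays each), over 4 features whose place relative to the mutation is not known here. Each SE given here comes from 1 spread fitted to both groups, so it does not show the spread within a group.

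Promoter sequence is shown for 3 genes on which the account turns. Nampt and Sirt1 are the pair through which the circadian clock and NAD are known to be linked in mouse liver, and Nmnat1 is the gene with the same sign on all arrays. Each line gives the 150 bases before the annotated gene start, 5′ to 3′ on the strand of the gene, from RefSeq on GRCm38.p6. Capitals mark the E-box CACGTG, the site bound by the clock factors Clock and Arntl, and the GC box GGGCGG, searched on both strands and so also written CCGCCC.
Sirt1, chr10:63339036-63339185, minus strand: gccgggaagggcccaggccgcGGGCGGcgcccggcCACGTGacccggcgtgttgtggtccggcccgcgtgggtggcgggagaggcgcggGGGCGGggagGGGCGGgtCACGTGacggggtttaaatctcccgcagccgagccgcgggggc
Nampt, chr12:32820185-32820334, plus strand: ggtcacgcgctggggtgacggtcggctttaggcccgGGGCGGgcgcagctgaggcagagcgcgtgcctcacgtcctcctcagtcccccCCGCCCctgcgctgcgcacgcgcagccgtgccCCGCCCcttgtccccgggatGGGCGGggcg
Nmnat1, chr4:149485211-149485360, minus strand: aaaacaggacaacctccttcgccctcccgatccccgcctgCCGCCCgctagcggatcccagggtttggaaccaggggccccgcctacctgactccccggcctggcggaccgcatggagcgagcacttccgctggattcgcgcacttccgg
The Sirt1 window holds 2 E-boxes and 3 GC boxes, the Nampt window 4 GC boxes and no E-box, and the Nmnat1 window 1 GC box. No motif overlaps another. Of 32851 windows of this length in the RefSeq table, 4.30% hold an E-box and 28.6% a GC box. Sequence outside such windows was not searched, so the lack of an E-box for Nampt holds only for these 150 bases. A match is a match of letters, and the arrays give no binding data.

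None of the 10 genes passed the test in any comparison in limma at a Benjamini-Hochberg adjusted p of 0.05 over all genes. Sirt6, a chromatin-bound deacetylase, was about 2-fold lower on 2 of the 4 untreated arrays and near wild type on the other 6 arrays. Nmnat1, the nuclear enzyme that completes NAD, lay above 0 on 8 of 8 arrays, with means of 0.26 and 0.28. Nnmt had the widest spread of the 10, and Nampt and Sirt1 lay on both sides of 0 in each group. At an unadjusted p under 0.05 there were 2 of the 10 genes for untreated mutants over wild type (Sirt6 lower, Nmnat1 higher), where 7.79% of all genes did, 3.14% higher and 4.65% lower. For treated mutants over wild type 1 of the 10 did (Nmnat1, higher), where 7.09% of all genes did, 3.73% higher and 3.37% lower. For treated over untreated mutants it was 1 of the 10 (Sirt6, higher), where 4.28% of all genes did, 2.37% higher and 1.91% lower. For both mutant groups averaged over wild type it was again 1 (Nmnat1, higher), against 9.84% of all genes, 4.54% higher and 5.3% lower. The median of the 10 was -0.062 in untreated and 0.029 in treated mutants, and that of all genes -0.012 and 0.0044. Over all genes, 0, 0, 0 and 2 (0.0105%) passed the adjusted threshold in the 4 comparisons. Blocking on the wild type number, 3, 8, 0 and 112 passed, none of them among the 10. The block takes out of the error the spread that the 2 arrays of a number share. For a ratio over wild type that spread is part of the error, so blocked p-values of such ratios can be too small. For treated over untreated mutants the shared wild type falls out within a number. There the fit without the block ignores the pairing, and its SE and p can be too large. For that difference Sirt6 had an unadjusted p of 0.0217 with the block (adjusted p = 0.757) and 0.0141 without it (limma).

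**Figure D1:**
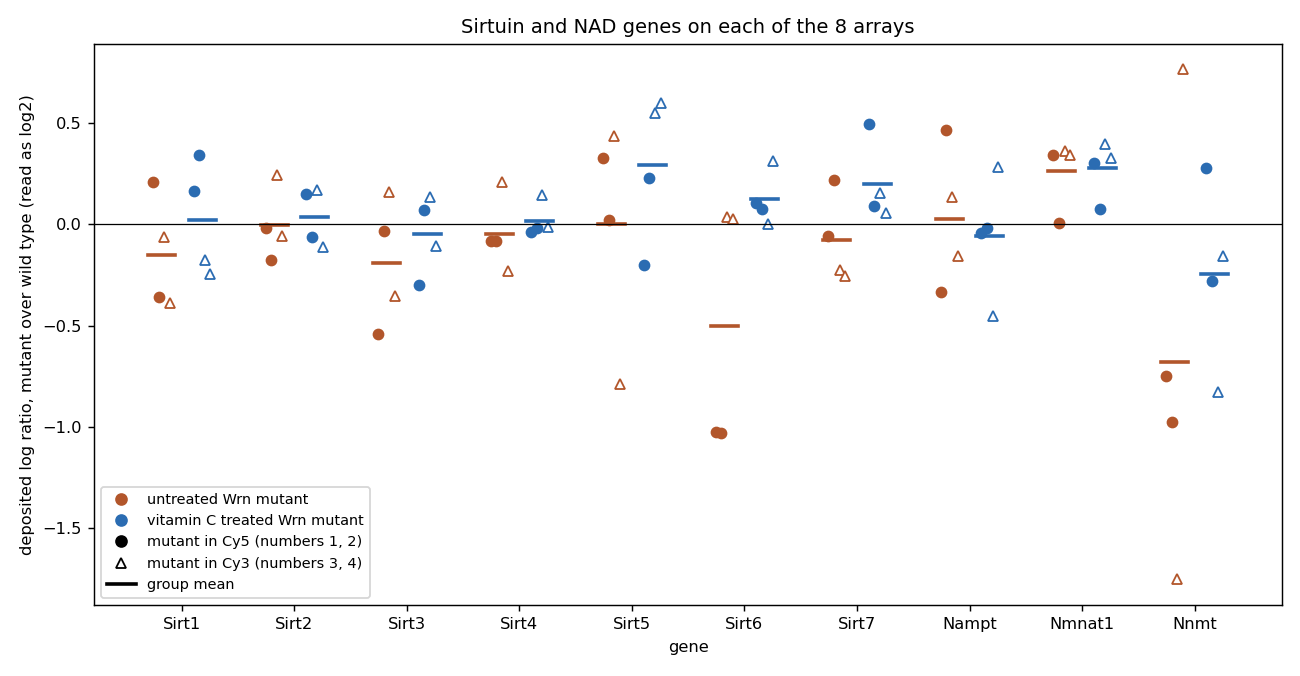
The deposited log ratio of mutant over wild type (vertical axis, read as log2) of each of the 10 genes on each array. Brown stands for untreated and blue for vitamin C treated mutants, filled circles for arrays with the mutant in Cy5, open triangles for those with the mutant in Cy3, and bars for group means. Sirt6 lies at -1.03 on 2 untreated arrays and between 0.0045 and 0.31 on the other 6, and all 8 points of Nmnat1 lie above 0.

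Nampt catalyses the slow step of NAD salvage, and its RNA is known to follow the clock in mouse liver. On untreated arrays 1 to 4 its log2 ratio was -0.33, 0.47, 0.14 and -0.16. On treated arrays 1 to 4 it was -0.040, -0.019, -0.45 and 0.29. The 2 groups overlapped and each held values on both sides of 0. The mean was 0.029 ± 0.15 in untreated and -0.056 ± 0.15 in treated mutants (SE, n = 4). The 95% interval of the untreated ratio ran from -0.32 to 0.38 and that of the treated ratio from -0.40 to 0.29, so that changes of this size could not be told from none. The difference of treated over untreated was -0.085, with an interval from -0.58 to 0.41 (adjusted p = 0.986, limma). Its 2 features moved in the same direction on 6 of 8 arrays but not by the same amount. Feature 17552 lay between -0.27 and 0.14 and feature 35787 between -0.63 and 0.81.

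Nmnat1 makes NAD from nicotinamide mononucleotide in the nucleus. Its untreated arrays 1 to 4 stood at 0.34, 0.0051, 0.36 and 0.34. Its treated arrays stood at 0.30, 0.079, 0.40 and 0.33. Every array lay above 0, the lowest of each group was number 2, and the groups overlapped. A value above 0 on 8 of 8 arrays occurred in 0.608% of all genes, and either sign on 8 of 8 in 1.57%. The mean was 0.26 ± 0.096 in untreated and 0.28 ± 0.096 in treated mutants (SE, n = 4), which is 1.20-fold and 1.21-fold. Over both groups it was 0.27 ± 0.068, with an interval from 0.12 to 0.42, and it did not pass over all genes (unadjusted p = 0.00297, adjusted p = 0.259, limma). The fit took the 8 ratios as independent, though each wild type number is on 2 arrays, so this SE and p can be too small. The value also rests on the reading of the swapped arrays. Turned by the dyes, the mean over both groups was -0.087 (unadjusted p = 0.239, limma). Treated over untreated mutants stood at 0.013 ± 0.14, with an interval from -0.29 to 0.32. That SE and interval ignore the pairing by wild type number, while the SD of the 4 differences within numbers was 0.051. Within numbers, where the same wild type number is on both arrays, treated minus untreated was -0.040, 0.073, 0.034 and -0.015, the narrowest such spread of the 10 genes. Feature 3814 lay above 0 on 8 of 8 arrays, between 0.15 and 0.44. Feature 16309 did on 6 of 8, and its 2 values below 0 were those of number 2, at -0.23 and -0.017. Over both groups the features stood at 0.27 and 0.27.

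Nnmt methylates nicotinamide and is abundant in hepatocytes. Its single feature gave -0.75, -0.97, -1.75 and 0.76 on untreated arrays 1 to 4. On treated arrays it gave 0.28, -0.28, -0.83 and -0.15. In each group 3 arrays lay below 0 and 1 above, not of the same number, and the groups overlapped. The mean was -0.68 ± 0.34 in untreated and -0.25 ± 0.34 in treated mutants (SE, n = 4), with intervals from -1.43 to 0.078 and from -1.003 to 0.51. The SD of the 4 values was 1.05 in untreated and 0.46 in treated mutants, while the SE comes from a spread fitted to both. Neither ratio passed over all genes (adjusted p = 0.674 and 0.911, limma). For the untreated ratio the unadjusted p was 0.0734, and 0.0138 when blocked on the wild type number (adjusted p = 0.336, limma). The blocked value leaves out of the error the spread shared by arrays of the same number, and can be too small. Turned by the dyes, the means were -0.18 and 0.24. Without untreated replicate 4 the untreated mean was -1.27, and without untreated replicate 3 it was -0.26. Treated over untreated was 0.43 ± 0.47 with all arrays, and 1.02 and 0.014 without these 2 replicates. The residual SD of Nnmt was 0.888, larger than that of 98.6% of all genes, whose median was 0.245. Number 3 was the lowest array of Nnmt in each group. On those 2 arrays the Kupffer cell markers, 8 of 9 of them measured, had a mean of -1.79 and -1.51, and the 3 measured of 5 erythroid markers -1.41 and -0.82, each the lowest of its group. The B cell markers (-1.05 and -1.22), the neutrophil markers (-0.69 and -0.19) and the sinusoidal endothelium markers (-0.43 and -0.47) were also lowest there. The hepatocyte (-0.39 and -0.15), T cell (0.0070 and -0.17) and stellate cell markers (-0.013 and -0.26) were lowest there in only 1 of the groups. The Kupffer mean was highest on untreated number 1 (1.03) and treated number 4 (2.18), where Nnmt read -0.75 and -0.15. The erythroid mean was highest on the same arrays, at 0.27 and 0.71. Where Nnmt was highest, on untreated number 4 and treated number 1, the Kupffer mean was 0.43 and 1.03. The part of these cells in the Nnmt values was not tested. In liver RNA, fewer cells of a type and less RNA per cell cannot be told apart. By the labels both arrays numbered 3 hold wild type 3, so they are not 2 independent observations. A low value in the mutant and a high one in wild type 3 cannot be told apart in these ratios.

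Sirt1, Sirt6 and Sirt7 are the sirtuins of the nucleus. Sirt1 deacetylates transcription factors and coactivators of fasting metabolism. On untreated arrays 1 to 4 it stood at 0.21, -0.36, -0.064 and -0.39, and on treated arrays at 0.16, 0.34, -0.18 and -0.24. The groups overlapped over most of their range. The mean was -0.15 ± 0.12 in untreated and 0.021 ± 0.12 in treated mutants (SE, n = 4), and treated over untreated was 0.17, with an interval from -0.21 to 0.55 (adjusted p = 0.974, limma). Its 2 features disagreed. Feature 33472 lay between -0.63 and 0.63 and was below 0 on all 4 arrays with the mutant in Cy3. Feature 22427 lay between -0.22 and 0.42, and was above 0 on number 3 in both groups.

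Sirt6 deacetylates histones, takes part in DNA repair and holds back glycolytic genes. Its single feature read -1.03, -1.03, 0.036 and 0.025 on untreated arrays 1 to 4. On treated arrays 1 to 4 it read 0.10, 0.074, 0.0045 and 0.31. The 2 low arrays are those with the untreated mutant in Cy5, and the other 6 arrays lay within 0.31 of 0. The groups overlapped, since untreated numbers 3 and 4 lay within the treated range. The untreated mean was -0.50 ± 0.15 (SE, n = 4), 1.41-fold lower, with an interval from -0.83 to -0.17 (unadjusted p = 0.00730, adjusted p = 0.535, limma). The treated mean was 0.12 ± 0.15. The SD of the 4 values was 0.61 in untreated and 0.13 in treated mutants, while the SE comes from a spread fitted to both. Treated over untreated was 0.62 ± 0.21, 1.54-fold, with an interval from 0.16 to 1.09 (unadjusted p = 0.0141, adjusted p = 0.974, limma). Within numbers, treated minus untreated was 1.13 and 1.11 on numbers 1 and 2, and -0.032 and 0.29 on numbers 3 and 4. The dye coefficient of Sirt6 was -0.28 (unadjusted p = 0.0225, adjusted p = 0.230, limma). By construction it is the same number as the mean over both groups turned by the dyes. Within the arrays with the mutant in Cy5 the untreated mean was -1.03, and within those with the mutant in Cy3 it was 0.031. The treated means were 0.089 and 0.16. The coefficient, fitted as common to both groups, thus rests mainly on the untreated arrays. The sign of the untreated mean and of treated over untreated was the same with the values turned by the dyes, at -0.53 and 0.50. Turning leaves the 2 values at -1.03 as they are and changes only numbers 3 and 4. These lay near 0 in untreated mutants, so the untreated sign could not change. The 6 measured of 8 hepatocyte markers had means of 0.16 and 0.099 on untreated numbers 1 and 2, against 0.16 and 0.075 on treated numbers 1 and 2, within a range from -0.39 to 0.16 in untreated and from -0.21 to 0.16 in treated mutants. The Kupffer means were 1.03 and 0.90, against 1.03 and 1.05. The erythroid means, of 3 genes, were 0.27 and -0.10, against 0.59 and -0.47, and the part of dye or cells in the Sirt6 values was not tested.

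Sirt7 is the sirtuin of the nucleolus. On untreated arrays it stood at -0.055, 0.22, -0.23 and -0.25, and on treated arrays at 0.50, 0.092, 0.16 and 0.054. All treated arrays lay above 0, and untreated number 2 lay among them. Sirt6, Sirt7 and Nmnat1 were the 3 of the 10 genes with 1 sign on all 4 treated arrays, where 13.2% of all genes had it. Nmnat1 was the 1 gene with 1 sign on all untreated arrays, where 12.9% of all genes had it. The Sirt7 mean was -0.079 ± 0.10 in untreated and 0.20 ± 0.10 in treated mutants (SE, n = 4), and treated over untreated was 0.28, with an interval from -0.047 to 0.60 (adjusted p = 0.974, limma). Its features differed. Feature 40793 had a treated mean of 0.38 (unadjusted p = 0.0152, adjusted p = 0.644 in limma over all features) and feature 7356 one of 0.025. With the values turned by the dyes, treated over untreated was -0.067.

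Sirt2 is mainly cytosolic and deacetylates tubulin. On untreated arrays it stood at -0.017, -0.18, 0.24 and -0.056, and on treated arrays at 0.15, -0.060, 0.17 and -0.11. It lay between -0.18 and 0.24 throughout, with means of -0.0017 ± 0.10 and 0.036 ± 0.10 (SE, n = 4). The average hides features that did not move together. Feature 38056 was above 0 on number 1 and below 0 on numbers 3 and 4 in both groups, while feature 26822 was above 0 on numbers 3 and 4 in both groups. Feature 44734 was above 0 on number 3 alone in each group.

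Sirt3, Sirt4 and Sirt5 are the sirtuins of mitochondria. Sirt3, the main mitochondrial deacetylase, stood at -0.54, -0.032, 0.16 and -0.35 on untreated and at -0.30, 0.071, 0.14 and -0.10 on treated arrays. The order of the numbers was the same in both groups, with number 1 lowest and number 3 highest. Its mean was -0.19 ± 0.13 in untreated and -0.048 ± 0.13 in treated mutants (SE, n = 4). Sirt4, an inhibitor of glutamate dehydrogenase, had 3 of 4 arrays below 0 in each group and number 3 as its highest, at 0.21 and 0.14. Its means were -0.045 ± 0.099 and 0.019 ± 0.099 (SE, n = 4). Sirt5 removes succinyl and malonyl groups, among others from the urea cycle enzyme Cps1. It stood at 0.33, 0.024, 0.44 and -0.79 on untreated and at -0.20, 0.23, 0.55 and 0.60 on treated arrays. Number 4 was the lowest array of one group and the highest of the other, so that treated minus untreated on that number was 1.38. The Sirt5 means were 0.0010 ± 0.20 and 0.29 ± 0.20 (SE, n = 4), and its residual SD of 0.511 was larger than that of 92.4% of all genes. Without untreated replicate 4 the untreated mean was 0.34. No interval of Sirt3, Sirt4 or Sirt5 left out 0 in any comparison.

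**Figure D2:**
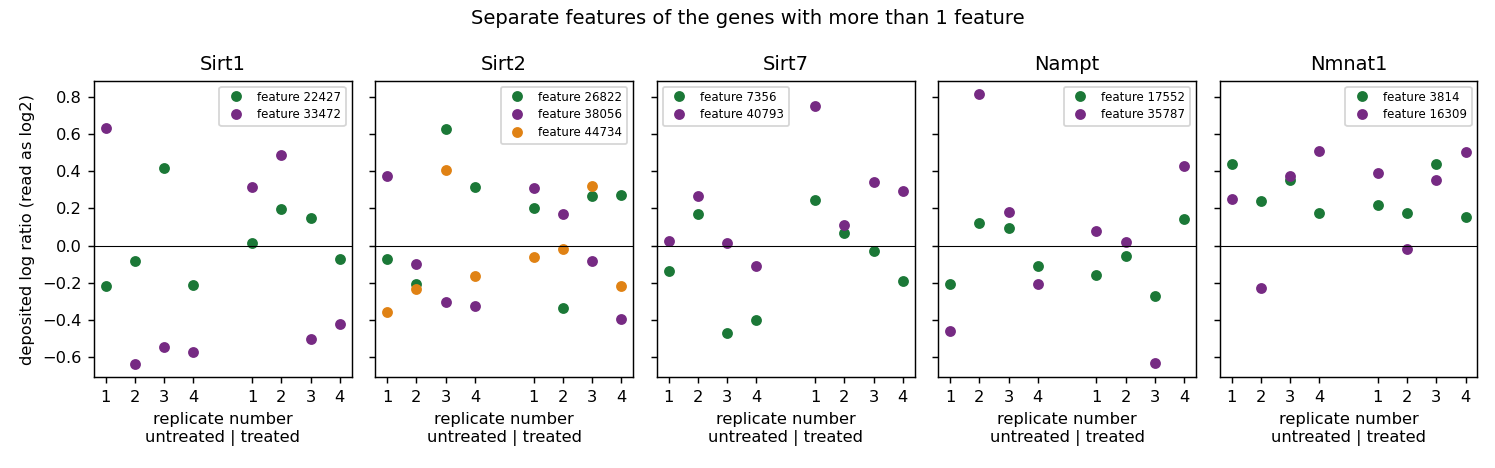
The deposited log ratio (vertical axis, read as log2) of each feature of the 5 genes with more than 1 feature, by replicate number in untreated (left) and treated (right) mutants. The Nmnat1 features lie above 0 but for feature 16309 on number 2, while those of Sirt1 and Sirt2 part from each other on several arrays.

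Across the 7 sirtuin genes, the untreated mean was below 0 for 6 and the treated mean above 0 for 6. All genes had medians of -0.012 and 0.0044. Some of the sirtuin means were near 0, such as -0.0017 for Sirt2 in untreated and 0.019 for Sirt4 in treated mutants. Treated over untreated was above 0 for 7 of 7, with a median of 0.17 where all genes had 0.017. That count follows in part from the other 2, and of its intervals only that of Sirt6 left out 0. All 7 share the same wild type numbers and arrays, so they are not 7 independent observations. Of the 7, 1 (Sirt6) had an unadjusted p under 0.05, where 4.28% of all genes did. With the values turned by the dyes, Sirt4, Sirt5 and Sirt7 of these lay below 0, at -0.010, -0.45 and -0.067. None of the 10 genes had treated and untreated arrays that did not overlap, where 2.24% of all genes did, and none had the same sign of treated minus untreated in all 4 numbers, where 15.8% did.

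**Figure D3:**
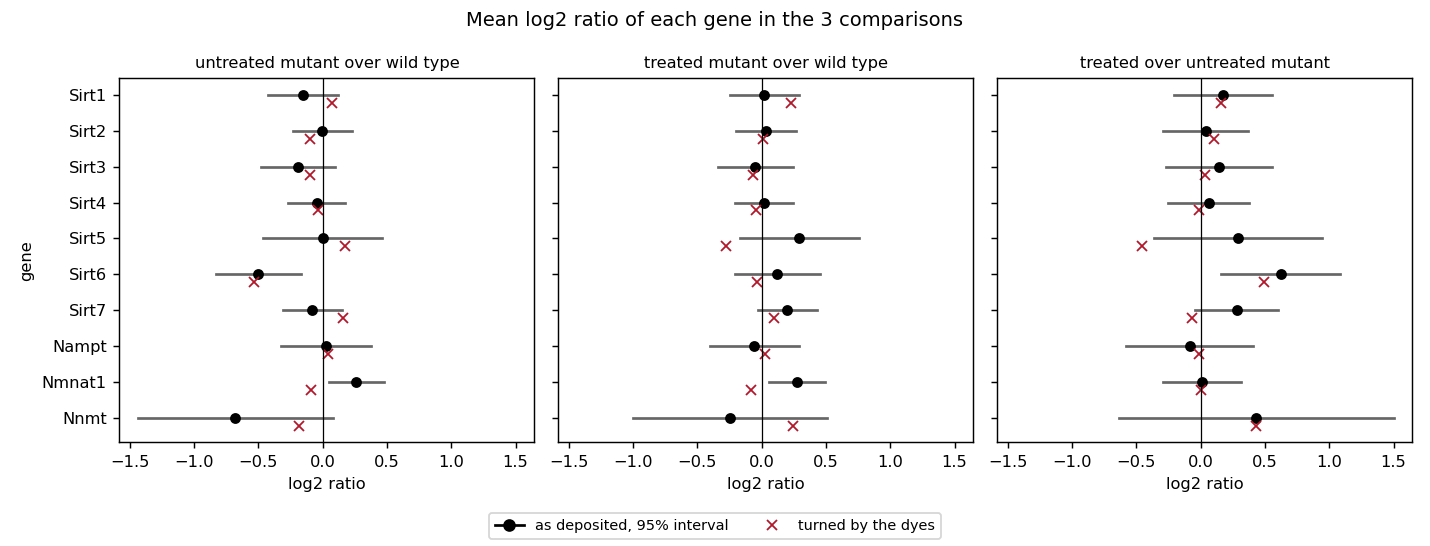
The mean log2 ratio (horizontal axis) of each gene in the 3 comparisons, with its 95% interval from limma. Dots and bars are the values as deposited and crosses the means with the values turned by the dyes. Intervals leave out 0 for Sirt6 (-0.50) and Nmnat1 (0.26) in untreated mutants, Nmnat1 (0.28) in treated mutants and Sirt6 (0.62) for treated over untreated.

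**Figure D4:**
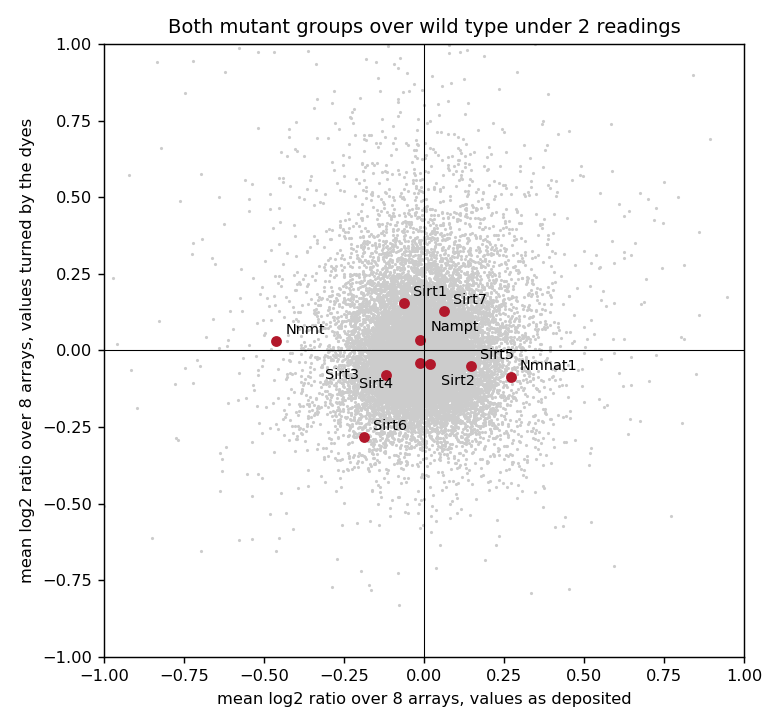
The mean log2 ratio of both mutant groups over wild type, as deposited (horizontal axis) and turned by the dyes (vertical axis). Grey points are all genes, apart from 30 with a mean beyond 1 on either axis, and red points the 10 genes. Nmnat1 lies at 0.27 and -0.087, Nnmt at -0.46 and 0.030, and Sirt6 below 0 on both axes, at -0.19 and -0.28.

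The other genes of NAD metabolism and its consumers were taken from 10 lists, ordered by role, which held 68 measured genes of 71 besides the 10. None of the 68 passed over all genes. At an unadjusted p under 0.05 there were 8 for untreated mutants over wild type, 3 higher and 5 lower, 8 for treated mutants, 1 higher and 7 lower, and 3 for treated over untreated, 1 higher and 2 lower. These are 11.8%, 11.8% and 4.41% of the 68, where all genes had 7.79%, 7.09% and 4.28%. For both groups over wild type there were 8, 2 higher and 6 lower, or 11.8%, where all genes had 9.84%.

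In the route from tryptophan, 4 of 10 genes had an unadjusted p under 0.05 in untreated mutants, 3 of them lower, where 7.79% of all genes did and 4.65% were lower. None did in treated mutants, where 7.09% of all genes did. Over both groups 3 of 10 did, all lower, where 9.84% of all genes did and 5.3% were lower. Whether the groups differed was tested gene by gene, and there 1 of 10 had an unadjusted p under 0.05, where 4.28% of all genes did. Aadat, an aminotransferase that diverts kynurenine to kynurenic acid, stood at -0.66, -0.028, -0.24 and -1.10 on untreated and at -0.41, -0.15, -0.25 and -0.44 on treated arrays. All 8 values lay below 0. Its mean was -0.51 ± 0.16 in untreated mutants (adjusted p = 0.535, limma) and -0.41 over both groups. Haao, which makes the precursor of quinolinate, also lay below 0 on all 8 arrays. Of all genes, 1.57% had 1 sign, above or below 0, on 8 of 8. The Haao means were -0.30 ± 0.12 in untreated mutants and -0.24 over both groups. Acmsd, which draws the pathway away from NAD, stood at -0.60 ± 0.22 in untreated mutants, with arrays from -1.46 to 0.056. Qprt, which turns quinolinate into the NAD precursor nicotinic acid mononucleotide, stood at 0.23 ± 0.093. It was above 0 on all 4 untreated arrays, where 12.9% of all genes had 1 sign. Turned by the dyes, the untreated means were 0.16 for Aadat, 0.057 for Haao, -0.21 for Acmsd and -0.12 for Qprt. Ido1, an enzyme that opens the tryptophan ring outside hepatocytes, was above 0 on all untreated and below 0 on all treated arrays, a lack of overlap that 2.24% of all genes had, and stood at -0.39 ± 0.14 for treated over untreated (adjusted p = 0.974, limma). Turned by the dyes that difference was -0.11, and the sign on numbers 3 and 4 was the opposite, so that the groups overlapped. Tdo2, the hepatocyte enzyme for the same step, stood at 0.11 ± 0.20 and -0.11 ± 0.20.

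In salvage, the other Nmnat genes did not have the sign of Nmnat1 throughout. Nmnat2, of the Golgi, stood at 0.15 ± 0.097 in untreated and -0.069 ± 0.097 in treated mutants, and Nmnat3, of mitochondria, at -0.095 ± 0.13 and 0.078 ± 0.13. Nmrk2, a nicotinamide riboside kinase, was below 0 on all 4 treated arrays, where 13.2% of all genes had 1 sign. Its mean was -0.38 ± 0.14 there and 0.016 ± 0.14 in untreated mutants. Nt5e, the ecto-enzyme that removes phosphate from nucleotides, stood at -0.31 ± 0.12 in treated mutants. Turned by the dyes, the treated means were -0.012 for Nmrk2 and 0.071 for Nt5e. In the route from nicotinic acid, Naprt and Nadsyn1 stood at -0.046 and 0.054 in untreated and 0.15 and 0.18 in treated mutants, with unadjusted p above 0.05. Nudt12, which hydrolyses NADH, stood at -0.30 ± 0.11 in treated mutants (0.12 turned by the dyes). It was the 1 of 7 genes of phosphorylation, transhydrogenation and transport with an unadjusted p under 0.05, where 7.09% of all genes had this.

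Among 11 measured NAD-consuming enzymes other than sirtuins, Parp1, the main poly(ADP-ribose) polymerase and a partner of Wrn in DNA repair, stood at 0.027 ± 0.11 and 0.16 ± 0.11. Parp2, its closest relative, stood at 0.076, 1.44, -0.32 and -0.32 on untreated and at 0.093, -0.076, -1.06 and -1.87 on treated arrays. Its treated mean was -0.73 ± 0.21 and treated over untreated was -0.95 ± 0.29 (adjusted p = 0.610 and 0.974, limma). The values below -1 were both on arrays with the treated mutant in Cy3, and turned by the dyes the treated mean was 0.74 and treated over untreated 0.20. Parp3 stood at 0.26 ± 0.098 in untreated mutants and at -0.044 turned by the dyes. As deposited it was above 0 on all 4 untreated arrays, where 12.9% of all genes had 1 sign.

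Of 10 regulators and partners of Sirt1, Ppargc1a, the coactivator that Sirt1 deacetylates in fasting, stood at -0.35 ± 0.13 in untreated and -0.42 ± 0.13 in treated mutants. It lay below 0 on 7 of 8 arrays (unadjusted p = 0.00249, adjusted p = 0.241 over both groups, limma), and at 0.019 turned by the dyes. Nr0b2, a nuclear receptor that represses bile acid synthesis, read 6.90, 0.65, 1.03 and -0.49 on untreated and 2.57, 0.86, 1.55 and 0.49 on treated arrays. Its untreated mean of 2.02 ± 0.85 thus leans on number 1. Of 8 measured enzymes known to be deacylated by mitochondrial sirtuins, Mlycd, the malonyl-CoA decarboxylase, stood at -0.29 ± 0.11 in untreated mutants (-0.16 turned by the dyes). It was the 1 of the 8 with an unadjusted p under 0.05 as deposited, where 7.79% of all genes had this in untreated mutants. Acadl, an acyl-CoA dehydrogenase of fat oxidation, read 0.62, 0.64, -0.81 and -1.10 on untreated and 0.32, 0.57, -0.68 and -0.90 on treated arrays, above 0 with the mutant in Cy5 and below 0 with the mutant in Cy3. Over both groups it stood at -0.17 as deposited and 0.70 turned by the dyes. Idh2, which makes mitochondrial NADPH, stood at 0.21 and 0.64 in these readings, and Uox, the urate oxidase, at -0.032 and 0.51.

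Of 12 clock genes tied to Nampt, 3 had an unadjusted p under 0.05 in treated mutants, where 7.09% of all genes did, and none in untreated mutants, where 7.79% did. For treated over untreated 1 of 12 did, where 4.28% of all genes did. Nr1d1 and Nr1d2, the Rev-erb repressors, stood at -0.98 ± 0.37 and -0.74 ± 0.23 in treated mutants, while Nampt stood at -0.056. On the 4 treated arrays Nr1d1 read -0.54, -1.07, -0.41 and -1.90, all below 0, where 13.2% of all genes had 1 sign. In untreated mutants it read -0.26, 0.68, 0.88 and -1.66, on both sides of 0. Npas2, a partner of Arntl, stood at 0.21 ± 0.090 in treated mutants and 0.31 ± 0.13 for treated over untreated. Turned by the dyes, the treated means were 0.17 for Nr1d1, 0.61 for Nr1d2 and -0.11 for Npas2. Arntl, Clock, Per2 and Dbp had unadjusted p above 0.05 in each comparison. The sources used here do not give the hour at which livers were taken.

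**Figure D5:**
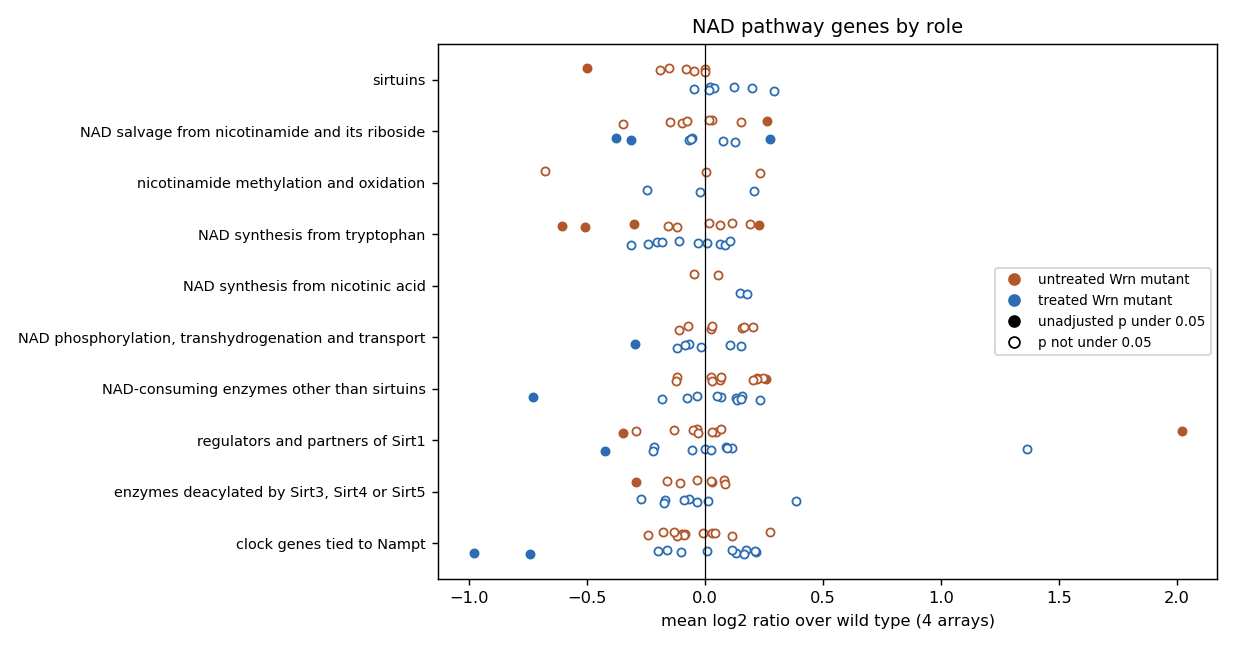
The mean log2 ratio over wild type (horizontal axis) of each measured gene in the 10 lists, in untreated (brown) and treated (blue) mutants. Filled points have an unadjusted p under 0.05 in limma, none of which passed after adjustment. In the tryptophan route 3 untreated points lie below -0.29, and the 3 filled clock points, at -0.98, -0.74 and 0.21, are Nr1d1, Nr1d2 and Npas2.

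The genes whose values lay nearest to 3 of the 10 over the 8 arrays were found by the root mean square difference of dye-corrected log2 ratios. For Sirt1 they were 8030423J24Rik (0.073), Erc1 (0.076) and Pnliprp2 (0.078), where the median over all genes was 0.32. For Nampt they were Zfp114 (0.11), Iws1 (0.11) and Cnot9 (0.12), against a median of 0.38. For Nnmt they were Fh1 (0.44), Matn2 (0.44) and Slc41a3 (0.44), against 0.90. This measure grows with the spread of a gene, which was wide for Nnmt, so it does not show whether a gene followed Nnmt in pattern.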

How the data were processed

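Two-colour arrays with untreated or vitamin C treated mutant liver RNA, 4 of each, against wild type liver RNA were used. The authors deposited log ratios, here read as log2, for 45220 features; limma was used, per the submitters' processing notes, with no role or version. The sources used here do not give the background correction, the normalization, the log base or the turning of swapped arrays. Unswapped arrays were written to 15 significant digits (median) and swapped ones to 6. No value was missing.

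Features with 1 gene symbol in the platform annotation (56 had several, 11511 none) were averaged by gene. RefSeq held the Entrez numbers of 33517. Genes were fitted with lmFit and eBayes (limma 3.58.1, R 4.3.3) on the 8 arrays together, with 1 coefficient for each group and 1 for the dye, leaving 5 residual degrees of freedom. P-values were adjusted over 19087 genes, and an adjusted p under 0.05 counted as passing. Intervals are 95%. The fit was tested on simulated data. No depth or intensity is known, so the number of arrays limits the precision.

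The wild type number pairs the arrays by the labels. Differences between numbers 1 and 2 correlated at 0.23 between the groups over genes, and those between 3 and 4 at 0.40. Members and lists were chosen with earlier results of these data known. The rule named all 10 members, up to 4 genes of each list by smallest unadjusted p under 0.05, and the 3 nearest genes of Sirt1, Nampt and Nnmt. Genes named beyond it (Tdo2, Nmnat2, Nmnat3, Naprt, Nadsyn1, Parp1, Arntl, Clock, Per2, Dbp, Acadl, Idh2, Uox) were chosen after their values were seen. Alternatives were the reading of swapped arrays, the dye coefficient, the block, feature handling, centring, scaling, the variance prior, array weights and leaving out each array. Listed genes without a measured feature here were not analysed here.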

Additional observations from a re-analysis of the deposited data

Results flagged for a closer look

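Among the 20 groups of 4 arrays (10 genes, each untreated and treated), 2 held an array far from the others, and chance flags about 1 in 20. Nmnat1 read 0.0051 on untreated number 2, where the nearest of the other arrays read 0.34. Sirt4 read 0.14 on treated number 3, where the nearest of the others read -0.015. The rule was applied only to values not corrected for the dye. With the dye correction Nmnat1 read 0.092 on that array, where the other untreated arrays ran from 0.25 to 0.43. Sirt4 then read 0.10 on treated number 3, where the other treated arrays ran from -0.055 to 0.025.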

How the results depend on the processing

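None of the 10 genes passed over all genes under any alternative, and the smallest adjusted p was 0.131 (Nmnat1 over both groups, with the wild type number as replicate block). Genes passing in all numbered 0, 0, 0 and 2 for untreated, treated, treated over untreated and both groups. They numbered 9, 10, 0 and 309 with the values turned by the dyes and 3, 8, 0 and 112 with the replicate block, which changed no call of the 10. For both groups they numbered 11 with scaled arrays, 5 with a robust prior and 21 with each feature on its own. Leaving out 1 array gave 0 to 3 for treated mutants (3 without treated replicate 2) and 0 to 4 for both groups (4 without untreated replicate 4). The counts with the replicate block can be too high for ratios over wild type, where the block leaves shared spread out of the error.

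Of the 10 genes, those with an unadjusted p under 0.05 numbered 2, 1, 1 and 1. They numbered 1, 0, 0 and 1 turned by the dyes and 3, 1, 1 and 2 with the replicate block, where Nnmt joined for untreated mutants and both groups. They numbered 2 for treated mutants and 2 for both groups with each feature on its own. Leaving out 1 array gave 1 to 3 for untreated, 0 to 2 for treated, 1 to 2 for treated over untreated and 1 to 3 for both groups. Each highest count came without untreated replicate 4, tied with treated replicate 2 for the 2 counts of 2. The 0 came without treated replicate 1 or 3, and the 1 for untreated mutants without untreated replicate 1 or 3.

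Signs turned in 67 of 704 recomputed values, but many of the 704 could not turn. The design is balanced, so the dye coefficient, the block and the variance prior do not change a mean. Nor does leaving out an array of one group change the mean of the other. The share of 67 in 704 thus does not measure how stable the signs are. Of the 67, 18 came with the values turned by the dyes. These were, in untreated mutants, Sirt1 at 0.076, Sirt7 at 0.16 and Nmnat1 at -0.088. In treated mutants they were Sirt4 at -0.046, Sirt5 at -0.28, Sirt6 at -0.034, Nampt at 0.027, Nmnat1 at -0.085 and Nnmt at 0.24. For treated over untreated they were Sirt4 at -0.010, Sirt5 at -0.45 and Sirt7 at -0.067. For both groups they were Sirt1 at 0.15, Sirt2 at -0.044, Sirt5 at -0.052, Nampt at 0.033, Nmnat1 at -0.087 and Nnmt at 0.030. By feature, in untreated mutants Sirt2 stood at 0.17, Sirt7 at 0.051 and Nampt at -0.025, in treated mutants Sirt1 at -0.030, and for treated over untreated Sirt2 at -0.066 and Nmnat1 at -0.054. For both groups Sirt1 stood at 0.025, Sirt2 at -0.042 and -0.040, Sirt7 at -0.092 and Nampt at 0.028. Sirt2 in untreated mutants was 0.0048 with centred arrays, Sirt5 -0.032 with scaled arrays and -0.034 with array weights, and Nampt over both groups 0.00056 and 0.0033.

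Leaving out 1 array turned the sign of values near 0. In untreated mutants Sirt2 ran from -0.082 to 0.051, Sirt4 from -0.13 to 0.044, Sirt5 from -0.15 to 0.34 and Nampt from -0.13 to 0.19. In treated mutants Sirt1 ran from -0.046 to 0.066, Sirt2 from -0.026 to 0.11, Sirt3 from -0.13 to 0.019, Sirt4 from -0.015 to 0.049 and Nampt from -0.21 to 0.089. For treated over untreated Sirt2 ran from -0.025 to 0.12, Sirt4 from -0.025 to 0.15, Sirt5 from -0.043 to 0.47, Nampt from -0.24 to 0.078 and Nmnat1 from -0.056 to 0.080. For both groups Sirt1 ran from -0.11 to 0.0073, Sirt2 from -0.023 to 0.056, Sirt4 from -0.056 to 0.031 and Nampt from -0.095 to 0.065. Sirt6 kept its sign, from -0.60 to -0.40 in untreated mutants and from 0.52 to 0.78 for treated over untreated, and so did Nmnat1 over both groups, from 0.24 to 0.30. For Sirt6 at least 1 of the 2 untreated arrays at -1.03 stayed in each of these fits. The causes were not tested. Without intensities, dim features could not be told from bright ones.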

Other observations

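The aldehyde oxidases, which oxidise methylated nicotinamide made by Nnmt, did not have 1 sign in either group as deposited. Aox3 read 1.13, 0.36, -0.10 and -0.45 on untreated and 0.58, 0.15, -0.15 and -0.66 on treated arrays, above 0 with the mutant in Cy5 and below 0 with the mutant in Cy3. Its means were 0.23 and -0.020 as deposited, and 0.51 and 0.38 turned by the dyes. Aox1 read 0.73, -0.11, 0.40 and -0.997 on untreated and 0.74, -0.44, 0.44 and 0.087 on treated arrays. Nmrk1, a nicotinamide riboside kinase, read -1.44 on untreated number 1 and between -0.41 and 0.47 on the other 7 arrays. These genes were chosen after their values were seen.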
